A study of Mus musculus with 2 samples.

Results

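Glutathione transferases were examined as 8 genes chosen by symbol, Gstm1, Gstm2, Gsta4, Gstp1, Gsto1, Gstt1, Mgst1 and Mgst2, among the 31053 genes listed for each library. All 8 were found in both libraries and all 8 passed the minimum of 100 UMIs over both that was used for comparisons between libraries. A UMI, or unique molecular identifier, tags one captured RNA molecule, so that copies made by amplification are counted once. The choice of genes used no measured value of theirs, although it was made with earlier results of these data known.

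The cells came from organoids of normal mouse urothelium, the layered epithelium that lines the bladder, grown from wild-type C57BL/6 mice of 8 to 10 weeks. One library held proliferative organoids (P), kept in complete medium with WNT3A, RSPO1, EGF, Noggin and the TGF-β receptor inhibitor LY2157299. The other held differentiated organoids (D), moved to medium without these 5 agents. Each condition was 1 library of dissociated cells, so differences between the conditions have no replicate behind them and no p-value is given. How many cultures or animals fed each library is not given in the sources used here.

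Glutathione transferases join the tripeptide glutathione to reactive, mostly fat-soluble compounds, which makes them easier to export and excrete. The cytosolic enzymes fall into classes named by Greek letters (mu, alpha, pi, omega, theta), while the microsomal enzymes are membrane proteins of a separate family. The urothelium is in lasting contact with compounds concentrated in urine, and variants of these enzymes have long been studied in bladder cancer.

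The kept cells, those with over 800 detected genes and at most 12% mitochondrial UMIs, numbered 6818 in P and 4896 in D, with 26681469 and 20305621 UMIs and medians of 3405.5 and 3227.5 UMIs per cell. Of the deposited barcodes, 10 were shared by both libraries, and 6 of the kept ones were. Over 12% mitochondrial UMIs were carried by 27.3% of the barcodes in D against 5.81% in P. The 84 genes of ribosomal proteins made up 37.5% of UMIs in P against 21.4% in D, and the median gene with at least 100 UMIs in each library stood 0.42 higher in D on the log2 scale. This shift is removed in the second set of values below, since levels in CPM (UMIs of a gene per 1000000 UMIs of the library) are relative to all RNA counted. The urothelial label matched its markers: the 5 uroplakin genes summed to 20.5 CPM in P and 1245 CPM in D, and 7 basal genes to 6021 and 8292 CPM. The 6 fibroblast genes had 53 UMIs in P and 1270 in D, nearly all from the matrix gene Dcn (40 and 1234), with Col1a2 at 0 in both. The 6 leukocyte genes had 10 and 402 UMIs, nearly all from Laptm5 (7 and 400), with Tyrobp and Cd3e at 0 in both and Ptprc at 1 and 2. The 5 smooth muscle genes had 38 and 875 UMIs, mostly from Acta2 (28 and 837), with Myh11 at 1 and 0. The 4 endothelial genes had 138 and 67 UMIs, with Cdh5 and Kdr at 0 in both, and the 5 erythroid genes had 0 and 1. A list of 9 genes that respond to dissociation summed to 1271 CPM in P and 2576 CPM in D, and its part in the results was not tested except where stated.

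The sequences upstream of the genes are shown first, as a description of the reference and not as a trait of the members. RefSeq promoters on GRCm38.p6, each spanning 250 bases before to 50 after a gene's start, were found for 7 of the 8 members, Gsta4 having none. They were searched on both strands for the core of the antioxidant response element (TGACNNNGC), which is bound by NRF2 with small MAF proteins, for the AP-1 motif (TGANTCA), and for the core of the xenobiotic response element (TGCGTG), bound by the aryl hydrocarbon receptor. The antioxidant core and the AP-1 motif can overlap, since both open with the same letters. Among 32851 promoters, 12.4% held the antioxidant core, 7.81% the AP-1 motif and 8.47% the xenobiotic core. Of the 7 members, Mgst1 held the antioxidant core, Gstp1 and Mgst2 held the AP-1 motif, and none held the xenobiotic core in this window. Whether these small counts differ from the shares of all promoters was not tested. The shares count promoter entries while the members are counted as genes, with 2 entries each for Gstm1 and Mgst1. The matches are given with 10 bases on each side and the motif in capitals, each read along the gene's own strand. For Mgst1 the motif lies on the opposite strand. Distances run from the match's first base to the start in the RefSeq table, which lies inside the gene as GENCODE draws it, by 211 bases for Mgst1, 819 for Mgst2, 73 for Gstp1 and 3802 for Gstp2. Gstp2, a close copy of Gstp1, is shown because its 27 bases are the same.
Mgst1, chr6:138140461-138140489, plus strand, 56 bases before the RefSeq start: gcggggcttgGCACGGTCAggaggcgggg
Mgst2, chr3:51661117-51661143, plus strand, 52 bases before the RefSeq start: ccaatcctgtTGACTCAactctgttgc
Gstp1, chr19:4037970-4037996, minus strand, 74 bases before the RefSeq start: tccaacgtgtTGAGTCAgcatccgggg
Gstp2, chr19:4042294-4042320, minus strand, 89 bases before the RefSeq start: tccaacgtgtTGAGTCAgcatccgggg
A match is a string of letters and not a measured site, and these libraries measure RNA only.

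Gstm1 is the member whose RNA level differed most between P and D, so the 250 bases before its start, here the same base in RefSeq and GENCODE, are given whole. None of the 3 motifs occurred in its 2 RefSeq promoter windows, which says only that these letters are not there.
Gstm1, chr3:108017974-108018223, minus strand: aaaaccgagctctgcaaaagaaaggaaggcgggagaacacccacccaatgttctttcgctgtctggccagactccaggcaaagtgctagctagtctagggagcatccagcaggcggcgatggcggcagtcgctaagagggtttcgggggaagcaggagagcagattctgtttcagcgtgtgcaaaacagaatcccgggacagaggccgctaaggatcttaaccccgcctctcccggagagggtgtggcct

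The genes were placed with the GENCODE annotation of GRCm38, the build the submitters' processing notes name. The mu class genes Gstm1 (chr3:108012255-108017973) and Gstm2 (chr3:107981702-107986453) lie near each other on the minus strand of chromosome 3, and Mgst2 (chr3:51660360-51682677, plus strand) lies elsewhere on it. Gsto1 (chr19:47854970-47864790, plus strand) and Gstp1 (chr19:4035407-4037985, minus strand) are on chromosome 19. Gsta4 is at chr9:78182774-78209349 on the plus strand, Gstt1 at chr10:75783813-75798584 on the minus strand and Mgst1 at chr6:138140316-138156755 on the plus strand. All 8 are annotated as protein-coding.

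Because the chemistry reads the 3′ end of a transcript, the last 400 bases of each transcript were cut into windows of 50 bases and each window was looked for in every other gene. For Gstp1, 91.2% of windows also occurred in another gene, and the ends of Gstp1 and Gstp2 shared an unbroken run of 369 bases. Reads that match 2 genes equally well are not counted by Cell Ranger, so the level of Gstp1 is uncertain. For the main transcripts of Gstm1 and Gstm2 the share was 1.14% each, and a shorter Gstm1 transcript shared 48.4% of its windows, with Gstm3 and pseudogenes. Gstm3 itself had 6 UMIs in P and 2 in D. No window of Gsta4, Gsto1, Gstt1, Mgst1 or Mgst2 was shared.

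To learn how the family is represented in proliferative and differentiated organoids, levels were first compared between the libraries. The members together made up 0.678% of UMIs in P and 0.897% in D. Gsto1 and Gsta4 held most of this in P, at 61.4% and 33.2% of the members' UMIs, with Gstm1 at 2.09%. In D, Gsta4 held 38.6%, Gsto1 31.0% and Gstm1 26.6%, so that Gstm1 joined the abundant members. One of the 8 members, Gstm1, was at least 2-fold higher in D, where 13.5% of the 10719 genes with at least 100 UMIs were, and none was at least 2-fold higher in P, where 4.73% were. The median log2 ratio of the members was 0.47 (D over P) and that of all these genes 0.41. After removal of the shift, Gstm1 stayed the only member at least 2-fold higher in D, against 5.64% of genes, while Gsto1 and Gstt1 passed 2-fold in P, against 8.65% of genes.

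**Figure D1:**
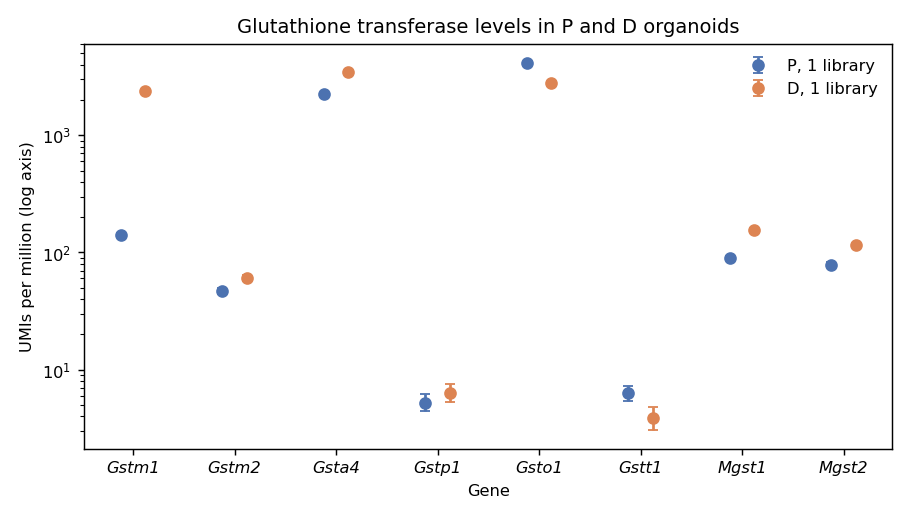
Level of each member in CPM, on a log axis, in the P and the D library. Points are 1 library each and bars are exact Poisson 95% intervals, which cover counting error only. Gstm1 moves from 142 in P to 2389 in D, while Gsta4 and Gsto1 are above 2000 in both libraries.

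Among the mu class enzymes, which act on many aromatic and epoxide compounds, Gstm1 had 3783 UMIs in P and 48502 in D. These counts gave 142 CPM (exact Poisson 95% interval 137 to 146) in P and 2389 CPM (2367 to 2410) in D. The level in D was 16.8-fold that in P (16.3 to 17.4), a log2 ratio of 4.07 and of 3.65 with the shift removed. Its neighbour Gstm2 behaved otherwise, with 46.8 CPM in P and 60.7 CPM in D. The log2 ratio of Gstm2 was 0.38 (0.26 to 0.49) and turned to -0.05 with the shift removed, so that its direction depends on the scaling.

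Gsta4, the alpha class enzyme known for conjugating hydroxynonenal, an aldehyde made when lipids are oxidised, was abundant in both libraries. It stood at 2251 CPM in P and 3461 CPM in D, a log2 ratio of 0.62 (0.60 to 0.64) that was 0.20 with the shift removed. Gstp1, the pi class enzyme of many epithelia, was at the low end with 140 UMIs in P and 129 in D. Its levels of 5.25 and 6.35 CPM gave a log2 ratio of 0.28 with an interval from -0.08 to 0.63, which spans no difference, and -0.15 with the shift removed. Gstp2 had 37 and 17 UMIs, so that the pi class was low in these counts under either name, with the shared 3′ ends above as a limit.

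Gsto1, the omega class enzyme, reduces glutathione mixed disulfides and dehydroascorbate. It had the most UMIs of the members in P, at 4159 CPM, and a lower level in D, at 2782 CPM. The log2 ratio was -0.58 (-0.59 to -0.57), and -1.002 with the shift removed. Gstt1, the theta class enzyme that acts on small halogenated compounds, went the same way from a low level, with 168 UMIs in P and 78 in D. Its log2 ratio was -0.71 (-1.12 to -0.32), and -1.13 with the shift removed.

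The microsomal enzymes were at middle levels. Mgst1, which also reduces lipid hydroperoxides, stood at 89.4 CPM in P and 156 CPM in D, a log2 ratio of 0.80 (0.72 to 0.88). Mgst2, which can also make a cysteinyl leukotriene, stood at 78.8 and 116 CPM, a log2 ratio of 0.56 (0.48 to 0.65). With the shift removed the values were 0.38 for Mgst1 and 0.14 for Mgst2. In order of level in P, on this scale of 3′ UMIs, the members ran Gsto1, Gsta4, Gstm1, Mgst1, Mgst2, Gstm2, Gstt1 and Gstp1. The intervals of Gstt1 and Gstp1, 5.38 to 7.32 and 4.41 to 6.19 CPM, overlap, so that their order in P is not resolved by the counts. In D the order was Gsta4, Gsto1, Gstm1, Mgst1, Mgst2, Gstm2, Gstp1 and Gstt1.

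To place these levels in cell states, the cells of each library were clustered with all glutathione transferase genes left out of the features. P gave 4 clusters, numbered P0 to P3. P0 (2654 cells) was led by Sprr3, Cnfn and Rptn, had all 9 intermediate markers and 8 of 9 squamous markers above the library's level, and is left unnamed. P1 (2575 cells) was led by Ctla2a, Nbl1 and Ptprz1, P2 (1234 cells) by Fmo2, Slc7a11 and Agr2, and P3 (355 cells), a proliferating-like cluster, by Ccna2, Hmmr and Nusap1. D gave 3 clusters. D0 (2736 cells) was led by Krt1, Reg1 and AC135964.2, D1 (1306 cells) by Acta2, Cav1 and Ms4a10, and D2 (854 cells), a luminal-like cluster with Upk3a and Upk3b among its top genes, by Ifit1bl1, Ppbp and Ankrd1. Clusters with most of the 7 basal markers above their library's level, P1, P3 and D1, form the basal side. The others form the side called suprabasal here, P2 among them with 3 of 7. P2 also had only 2 of 9 intermediate, 0 of 3 luminal and 0 of 9 squamous markers above its library's level. Its place on that side therefore rests on the basal count alone. The suprabasal side held 57.0% of the kept cells in P and 73.3% in D.

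**Figure D2:**
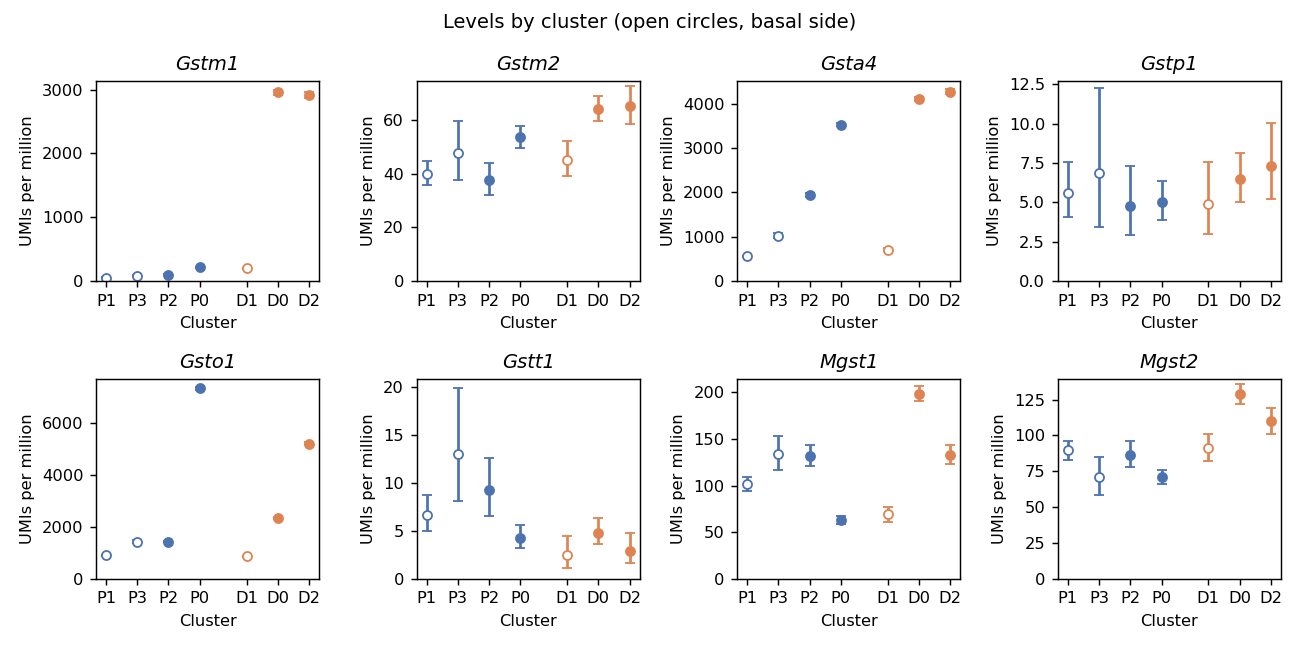
Level of each member in CPM by cluster, blue for the 4 clusters of P and orange for the 3 of D, each panel with its own axis from 0. Open circles are clusters on the basal side, and bars are exact Poisson 95% intervals. Gstm1 is at 2956 in D0 and 2916 in D2 and at most 216 elsewhere, and Gsto1 is highest in P0.

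Gstm1 was low in all clusters but D0 and D2. In P it ran from 51.7 CPM in P1 over 86.4 in P3 and 99.5 in P2 to 216 in P0. In D it was 198 CPM in D1, 2956 in D0 and 2916 in D2. The D0 and D2 intervals, 2924 to 2988 and 2870 to 2963 CPM, overlap, so that the luminal-like cluster did not differ from D0 beyond counting error. Suprabasal over basal, the log2 ratio was 1.71 in P and 3.90 in D, and 98.3% of the Gstm1 UMIs in D came from the suprabasal side.

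Gsta4 and Gsto1 shared a preference for the suprabasal side in both libraries. Gsta4 was at 558 CPM in P1, 1027 in P3, 1933 in P2 and 3524 in P0. In D, Gsta4 was at 710 CPM in D1, 4106 in D0 and 4267 in D2. Gsto1 was at 903 CPM in P1, 1425 in P3, 1437 in P2 and 7337 in P0. In D, Gsto1 was at 864 CPM in D1, 2350 in D0 and 5214 in D2. They parted within the suprabasal side, where Gsta4 was nearly level between D0 and D2 and Gsto1 was higher in D2, the luminal-like cluster. Suprabasal over basal, the log2 ratios were 2.30 in P and 2.55 in D for Gsta4, and 2.57 and 1.92 for Gsto1. All members summed to 1756 CPM in P1 and 1984 CPM in D1, against 11274 CPM in P0 and 12715 CPM in D2.

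Mgst1 and Mgst2 had no such fixed pattern. Mgst1 was lowest in P0, at 62.7 CPM, against 102 in P1, 132 in P2 and 134 in P3, while in D it was lowest on the basal side, at 69.0 CPM in D1, and higher in D0 (199) and D2 (133). Its log2 ratio, suprabasal over basal, was -0.42 (-0.54 to -0.31) in P and 1.36 (1.19 to 1.55) in D. Mgst2 had the same signs at smaller size, -0.21 (-0.34 to -0.08) in P and 0.43 (0.27 to 0.59) in D, and its sign in P turned to 0.19 when uroplakin-positive cells were set against uroplakin-negative cells. Gstm2 ran from 37.7 to 65.3 CPM over all 7 clusters, with ratios of 0.26 in P and 0.51 in D. Gstp1 gave intervals that span 0 on this comparison in both libraries, and Gstt1 gave -0.49 in P and an interval from -0.18 to 1.91 in D.

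At least 2-fold apart between the sides were 3 members in P (Gstm1, Gsta4 and Gsto1), where 14.4% of 9486 genes were, and 4 in D (the same 3 and Mgst1), where 13% of 9398 genes were. Setting uroplakin-positive against uroplakin-negative cells left no member 2-fold apart in P. The log2 ratios there were 0.83 for Gstm1, 0.29 for Gsta4 and 0.95 for Gsto1. In D this grouping left only Gstm1 (2.16) and Gsto1 (1.19) past 2-fold, with Gsta4 at 0.96 and Mgst1 at 0.47. How many of all genes were 2-fold apart under it was not computed, so the lower counts are not read as particular to the members. With a finer clustering of D the ratio between the sides was 2.41 for Gstm1, 1.43 for Gsta4, 1.67 for Gsto1 and 0.62 for Mgst1, the last below 2-fold. With the 6% of cells of highest doublet score left out of D, the ratio of Gstm1 was 4.52.

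The comparison of D with P was then made within each side, since the libraries hold the sides in different shares. On the basal side Gstm1 was at 57.6 CPM in P and 198 CPM in D, a 3.43-fold difference (log2 1.78, interval 1.62 to 1.94). On the suprabasal side it was at 188 and 2943 CPM, a 15.7-fold difference (log2 3.97, 3.92 to 4.02). Gstm1 was the only member at least 2-fold higher in D on the basal side, where 14.4% of 8364 genes were. On the suprabasal side Mgst1 was the other, where 14.9% of 9980 genes were. These calls used CPM without removal of a shift. That of Mgst1, at log2 1.16, lies near 2-fold and so may depend on the scaling. The uroplakins, luminal genes, stood at 69.2 CPM on the basal side of D against 1543 CPM on its suprabasal side. Free RNA from other cells, doublets and low levels in the basal-side cells themselves were not told apart here. The uroplakin level on the basal side was 4.49% of that on the suprabasal side, and the Gstm1 level there 6.72%. The part of RNA from other cells in the basal-side value of Gstm1, and so in its 3.43-fold difference, was not tested.

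Gsto1, by contrast, was lower in D on both sides. It was at 5893 CPM in P and 3268 CPM in D on the suprabasal side (log2 -0.85). On the basal side it was at 992 and 864 CPM (log2 -0.20, -0.26 to -0.14). Grouped by uroplakin UMIs, Gsto1 was over 2-fold lower in D in both groups, without removal of the shift. It went from 7580 to 3357 CPM in cells with a uroplakin UMI (log2 -1.18). In cells without one it went from 3930 to 1473 CPM (log2 -1.42). The basal side of P pools P1, at 903 CPM of Gsto1 (882 to 924), with the proliferating-like P3, at 1425 CPM. The basal side of D is D1 alone, at 864 CPM (835 to 893). This interval overlaps that of P1, though overlap does not show that the levels are equal. Gsta4 was higher in D on both sides, by 0.41 on the suprabasal and 0.15 on the basal side on the log2 scale. The shift of the median gene, 0.42, was taken over all kept cells, and none was computed within a side. In cells without a uroplakin UMI, Gsta4 was slightly lower in D (log2 -0.09, -0.12 to -0.06), and in cells with one it was higher (0.58). Mgst1 went opposite ways on the sides. It went from 107 to 69.0 CPM on the basal side (log2 -0.63, -0.83 to -0.44) and from 79.7 to 178 CPM on the suprabasal side (log2 1.16, 1.06 to 1.25). Grouping by uroplakin UMIs did not show this. Mgst1 was then higher in D in cells without one (91.2 to 123 CPM, log2 0.43, 0.31 to 0.55) and in cells with one (log2 1.47). Mgst2 was at 86.3 and 91.2 CPM on the basal side, an interval that spans no difference, and at 74.6 and 123 CPM on the suprabasal side (log2 0.72).

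**Figure D3:**
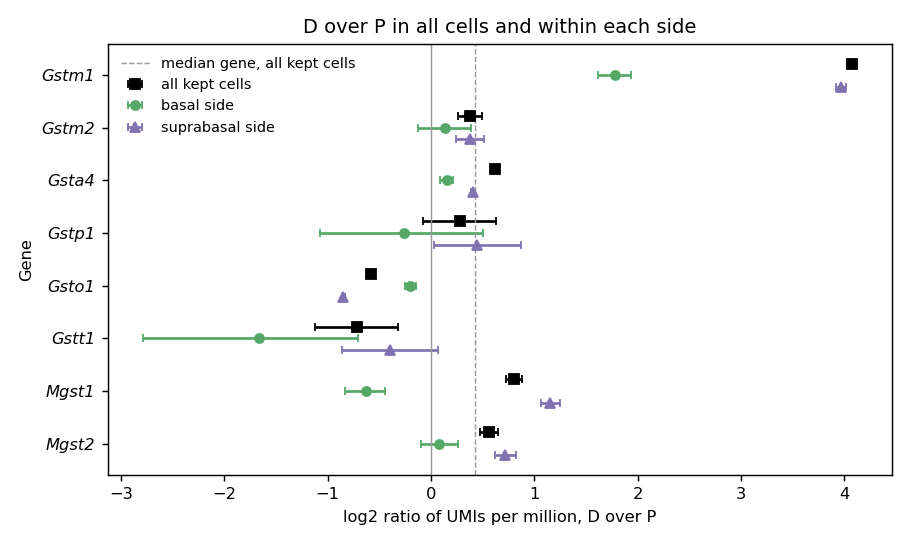
Log2 ratio of CPM, D over P, for each member in all kept cells, on the basal side and on the suprabasal side, with exact conditional binomial 95% intervals. The solid line marks no difference and the dashed line the median gene over all kept cells, at 0.42. Gstm1 is at 4.07, 1.78 and 3.97, and Mgst1 is below 0 on the basal side and above 0 on the suprabasal side.

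The Gstm1 difference was also present in cells grouped by single properties. Among cells with a uroplakin UMI it was at 241 CPM in P (303 cells) and 3129 CPM in D (2849 cells), and among cells without one at 135 and 702 CPM, log2 ratios of 3.70 (3.56 to 3.85) and 2.38 (2.31 to 2.44). The difference was 17.1-fold in cells at or below their library's median share of dissociation response UMIs and 16.9-fold in cells above it. Without the 317 cells of D and 7 of P that held Laptm5, it was 16.4-fold. The difference also moved with mitochondrial share, with a log2 ratio of 3.02 in cells of at most 6% mitochondrial UMIs and 4.05 in cells above. Gsto1 moved with the dissociation response, with a log2 ratio of -0.10 in the cells at or below the median and -1.13 in those above, and the part of this response in its D level was not tested. Cycling cells of P, 424 with at least 2 proliferation genes, had 1709 CPM of Gsto1 against 4354 CPM in the others. For Gstm1 the values were 99.8 and 145 CPM. The other cells include the suprabasal side, so cycling and side are mixed here. Within the basal side the order was reversed. The proliferating-like P3 was at 1425 CPM of Gsto1 against 903 in P1, and at 86.4 against 51.7 CPM of Gstm1.

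Cells were thinned to 2100 UMIs each to compare how many cells held a transcript, which left 6638 cells in P and 4417 in D. Gstm1 was found in 20.4% (exact binomial 95% interval 19.4 to 21.4%) of cells in P and 70.3% (69.0 to 71.7%) in D, and in 31.8% and 73.2% without thinning. In D this was 84.5% of suprabasal-side cells and 23.7% of basal-side cells, while Upk3a was found in 16.7% and 1.45%. Median depths on those sides were 3440 and 2672 UMIs before thinning. Cells of D spread widely, with 12 or more Gstm1 UMIs in 13.6% of them and none in 29.7%, where no cell of P reached 12. The variance of Gstm1 over its mean was 8.09 on the suprabasal side of D, against 2.49 for Gsta4 and 7.39 for Gsto1 there. A wide spread was thus not particular to Gstm1.

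**Figure D4:**
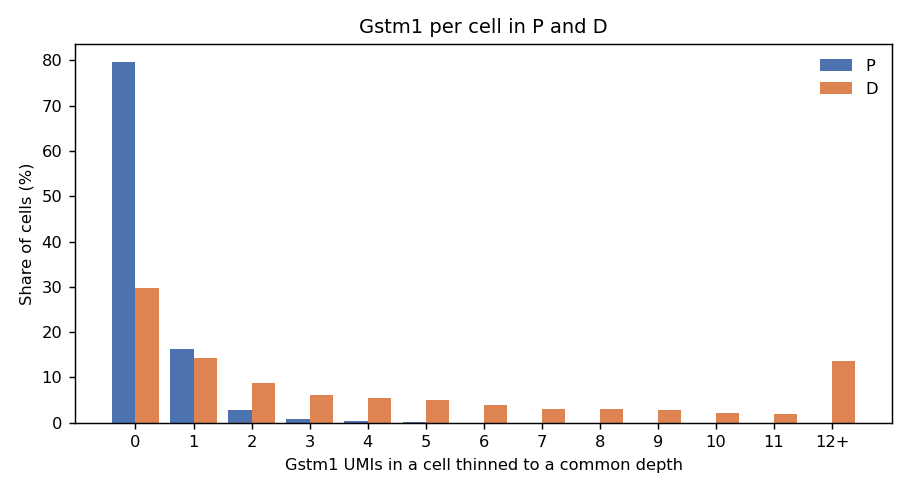
Share of cells by the number of Gstm1 UMIs, after each cell was thinned to 2100 UMIs, in P (6638 cells) and D (4417 cells), with 12 and more in the last bar. Most cells of P hold 0, at 79.6%, while 13.6% of cells of D are in the last bar.

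Gsta4 was found in 81.9% of thinned cells in P and 91.6% in D, and Gsto1 in 89.3% and 91.9%, so that both were found in most cells. Mgst1 was found in 17.9% and 25.7%, Mgst2 in 15.2% and 21.3%, and Gstm2 in 8.75% and 11.5%. Gstp1, in 1.21% and 1.34% of cells, and Gstt1, in 1.48% and 0.906%, were found in few cells of either library. Whether these small shares can be told from background was not tested. A thinned cell held a median of 2 members in P and 3 in D. On the suprabasal side of D, Mgst1 was found in 32.1% of cells with Gstm1 and 20.4% of cells without, and Mgst2 in 23.5% and 17.4%, and in P the Mgst1 counts there were 166 of 1029 cells with Gstm1 (16.1%) and 451 of 2821 without. On the basal side Mgst1 was found in 25.7% of cells with Gstm1 and 19.9% of cells without in P, and in 13.5% and 9.78% in D.

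By Pearson's r of log2(CPM + 1) over the 7 clusters, given as a description because clusters share libraries, the genes most like Gstm1 were Ngly1, Rmdn3 and Ctse, each with r = 0.99. Those most like Gsto1 were Scel (r = 0.998), Camk1d (0.992) and Ltf (0.988). For Gstp1 they were Atp5c1 (0.96), Ndufc2 (0.95) and Pcgf6 (0.95), from 140 and 129 UMIs of Gstp1, whose intervals overlap over all 7 clusters. Each set was picked as the highest r among all genes with at least 100 UMIs. Over so few clusters, high values are likely from that choice alone.

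Of the 20 other genes of the superfamily and its relatives, 14 reached 100 UMIs over both libraries, of which 5 passed 2-fold in the direction of D and 3 in that of P, beside 13.5% and 4.73% of all genes tested. With the shift removed these became 2 and 3, beside 5.64% and 8.65%. Mgst3, a microsomal relative with peroxidase activity, went from 64.7 to 348 CPM (log2 2.43), with 27.6 to 209 CPM on the basal side. Gsta3, an alpha class enzyme, went from 5.21 to 31.7 CPM (2.61). Gstt3, Hpgds and Gstt2 had log2 ratios of 1.22, 1.11 and 1.06. Lower in D were Ptges, the microsomal prostaglandin E synthase, from 131 to 5.71 CPM (-4.52), Gsta1, from 48.5 to 9.65 CPM (-2.33), and Gstm5, from 39.1 to 13.3 CPM (-1.55). Gsta1 shares 87.2% of its end windows with other genes, so its count is uncertain. Gsta2, Gstz1, Gstk1, Gstcd, Gsto2 and Gstm4 lay between -0.47 and 0.99, Gstp2 stayed under 100 UMIs, and the other 5 had under 20 UMIs, Gstp3 and Gstt4 at 0 in both libraries. A count of 0 allows up to 3 UMIs per library at a one-sided 95% level.

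**Figure D5:**
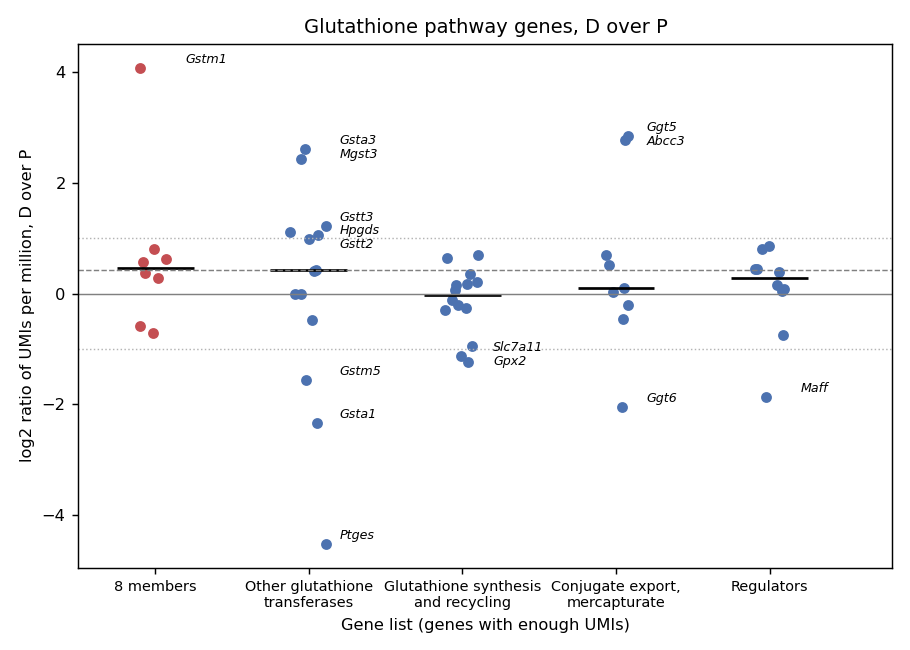
Log2 ratio of CPM, D over P, of each gene with at least 100 UMIs over both libraries in 5 gene lists, with the list's median as a bar and genes at least 2-fold apart named. Dotted lines mark 2-fold, the dashed line the median gene at 0.42. Gstm1 is the only member past 2-fold, and Ptges at -4.52 is the lowest gene shown.

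Of the genes that make and recycle glutathione, 14 reached 100 UMIs, none of them 2-fold higher in D and 2 of them 2-fold higher in P (3 with the shift removed), with a median log2 ratio of -0.03. The same shares of all genes as above stand beside this count and those of both lists that follow. Those 2 were Gpx2, a glutathione peroxidase of epithelia, from 259.5 to 109.9 CPM (-1.24), and Slc7a11, the cystine importer, from 29.9 to 13.7 CPM (-1.13). Gclc and Gclm, the subunits of the enzyme that limits glutathione synthesis, had log2 ratios of 0.06 and 0.15. Of 9 genes for export and breakdown of the conjugates, 2 were at least 2-fold higher in D, Ggt5 (1.16 to 8.32 CPM, 2.84) and Abcc3, an export pump (3.86 to 26.4 CPM, 2.78), and 1 in P, Ggt6 (5.28 to 1.28 CPM, -2.05), with the same counts after removal of the shift and a median of 0.10. Of 10 regulators, none was at least 2-fold higher in D and 1, the small MAF gene Maff, was in P (23.9 to 6.55 CPM, -1.87), or 2 in P with the shift removed, with a median of 0.28. Nfe2l2, which encodes NRF2, had a log2 ratio of 0.39 and Ahr one of 0.44, both near the shift of the median gene.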

How the data were processed

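Organoid cells were profiled with the 10x Genomics 3′ v3 chemistry in 1 P and 1 D library. The deposited matrices hold raw UMI counts, which the authors made with bcl2fastq 2.19.0 and Cell Ranger 3.0.2 on GRCm38 (versions from the submitters' processing notes) without normalization. Feature and barcode names were joined by their order. Cells were kept by the filter of the study, over 800 genes and at most 12% mitochondrial UMIs. Counting cells with exactly 800 genes too gives 6826 in P, the number the study states, in place of the 6818 used, and leaves D at 4896. UMIs were summed and given as CPM. A ribosome-rich library lowers the CPM of all other genes. Levels, ratios and shares carry exact Poisson, conditional binomial and Clopper-Pearson 95% intervals, which cover counting error only. No test between conditions was possible with 1 library each, and a call is a 2-fold difference among genes with at least 100 UMIs. The script was tested on simulated data.

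Cells were clustered per library with Seurat 5.3.0 in R 4.3.3 (scale factor 10000, 2000 variable features, 25 components in P and 21 in D, resolution 0.2) after removal of 12 and 13 glutathione transferase genes from the features. scanpy 1.11.5 ran scrublet, which called 0 doublets and is taken not to have worked, so doublets were kept. Python 3.11.15, scipy 1.17.1 and matplotlib 3.10.9 were used. Named genes were the members, other family genes with at least 20 UMIs, up to 4 genes per direction past 2-fold in the other lists, 3 genes most like Gstm1, Gsto1 and Gstp1, and 3 leading genes per cluster; marker genes, Gclc, Gclm, Nfe2l2, Ahr and genes named for low counts were chosen after their values were seen. Members and lists were chosen with earlier results of these data known. Alternatives changed the scaling, the cell filter, the fold, the minimum count, the clustering and the depth.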

Additional observations from a re-analysis of the deposited data

Results flagged for a closer look

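Suprabasal over basal, Mgst1 went opposite ways in the libraries, at -0.42 (log2) in P and 1.36 in D. D over P, Mgst1 was at -0.63 on the basal side and 1.16 on the suprabasal side. With cells grouped by uroplakin UMIs instead, Mgst1 was higher in D both in cells without one (0.43) and in cells with one (1.47). Mgst2 had -0.21 in P and 0.43 in D between the sides. The differences between these ratios were not tested, since each rests on 1 library, and the intervals cover counting error only.

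The cell filter left out 2079 barcodes of D, of which 1906 had over 12% mitochondrial UMIs. It left out 1376 of P, of which 476 had. How many of all genes differed between these sets was not computed, so the values below are not particular to the members. In the left-out barcodes of D, Gstm1, Gsta4 and Mgst2 stood above the left-out barcodes of P beyond counting error. Per 1000000 non-mitochondrial UMIs, Gstm1 was at 1612 there against 129 in the 1376 left-out barcodes of P, Gsta4 at 1560 against 1160, and Mgst2 at 99.4 against 69.3. The kept cells of D were at 2572 for Gstm1. Gsto1 went the other way in the left-out barcodes, at 1528 in D against 2638 in P. The intervals of Mgst1 (92.7 against 108), Gstm2 (35.7 against 36.1), Gstp1 (3.86 against 3.01) and Gstt1 (1.93 against 8.03) overlapped. Overlap of separate intervals does not show that levels are equal. For Gstt1, with 4 UMIs in D and 16 in P, the intervals only just met.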

How the results depend on the processing

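No paired analysis was possible because each condition has 1 library, and for the same reason no library could be left out. Gstm1 was at least 2-fold higher in D under all 12 alternatives, with a log2 ratio from 3.02 to 4.12. The count of members at least 2-fold higher in P, 0 as reported, became 1 when mitochondrial and ribosomal protein genes were left out of the scaling, 2 with the shift removed, and 1 each in cells of at most 6% mitochondrial UMIs and in cells above the median dissociation response, where 2 members were higher in D. A threshold of 1.5-fold gave 3 members in D and 1 in P. The median of the members, 0.47, became 0.13 without mitochondrial and ribosomal protein genes, 0.047 with the shift removed, 0.27 in cells of at most 6% mitochondrial UMIs and 0.33 in cells at or below that median. Over all genes, the 1442 higher in D and 507 higher in P became 695 and 822 without mitochondrial and ribosomal protein genes, 605 and 927 with the shift removed, and 3879 and 921 at 1.5-fold. A minimum of 20 UMIs gave 889 higher in P, and a minimum of 1 UMI gave 4547 and 3368. Uroplakin-positive against uroplakin-negative cells gave 0 members 2-fold apart in P in place of 3, and 2 in D in place of 4. The share of all genes under that grouping was not computed. The cause was not tested except where the setting itself changes the scale or the genes counted. Of the 96 member ratios of D over P under alternatives, 50 stayed within the counting interval. Signs turned for Gstm2 and Gstp1 in this comparison and for Mgst2 between the sides in P. Scrublet removed no cell, so that alternative gave no value. Leaving out the highest doublet scores and the splits by mitochondrial share and dissociation response were chosen after seeing the data.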
